A study of Mus musculus with 12 samples.

Results

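The NOTCH2 pathway genes described here are 9 genes, chosen by name and matched by Ensembl identifier: the receptors Notch1 and Notch2, the proteases Adam10, Psen2 and Ncstn, the nuclear factors Rbpj and Maml1, and the targets Hes1 and Dtx1. They are 9 of the 37991 genes in the count table, and all 9 passed the filter on low counts that left 13538 genes for testing. RNA was sequenced in bulk from resting B cells purified from the spleens of C57B6 mice aged 8 weeks, with 3 biological replicates in each of 4 groups. Resting cells (0 h) were compared with cells cultured for 3 h with anti-IgM, an antibody that cross-links the B cell receptor, and the cytokine IL-4. No group was cultured for 3 h without these stimuli. Effects of anti-IgM, of IL-4 and of the culture itself therefore cannot be told apart. "Activation" below stands for the whole 3-h treatment. Both genotypes carry the CD23-iCre transgene. The control, called Cre-only, has no other stated alteration. The Runx1 c-k/o mice in addition carry Runx1 alleles with a floxed exon, which Cre removes.

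The CD23 promoter drives Cre from the transitional B cell stage, so the deletion takes place in maturing B cells and not in earlier precursors. The purification depletes non-B cells and CD43+ activated B cells and, by its stated markers, does not separate follicular from marginal zone B cells. The labels do not say whether a replicate was 1 mouse or several, and p-values measure the spread between these samples. In bulk RNA, fewer cells of a type and less RNA per cell cannot be told apart.

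Notch receptors are transmembrane proteins cut in steps after they bind a ligand on a neighbouring cell. ADAM10 removes the extracellular part, γ-secretase (presenilin, nicastrin and partners) then frees the intracellular domain, and this domain enters the nucleus, binds the DNA-binding protein RBPJ and recruits Mastermind-like proteins to switch on targets such as Hes1 and Dtx1. In the spleen, NOTCH2 signalling is known for directing B cells to the marginal zone fate. RUNX1 is a transcription factor that acts as an activator or a repressor depending on its partners. The comparisons ask whether the genes of this pathway changed in level when Runx1 was deleted, when cells were activated, and whether activation changed them differently in the 2 genotypes.

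Between genotypes, 1 of the 9 genes passed the test at 3 h, where 2.77% of all tested genes did. At rest 0 passed, where 1.49% did. The gene was Psen2, the catalytic presenilin subunit of γ-secretase, which stood 1.48-fold above Cre-only in the Runx1 c-k/o samples at 3 h. Over the alternative fits the count at 3 h ran from 0 to 5. On activation the pathway moved in both directions. In Cre-only cells 7 of 9 genes changed, where 75.0% of all tested genes did: the receptor Notch2 fell 5.32-fold and the target Hes1 13.4-fold, while Rbpj rose 3.52-fold.

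Values are normalized CPM, which are read counts scaled to a common library size (CPM) after trimmed-mean (TMM) normalization, given in the order of replicates 1, 2 and 3. Log2 fold changes with standard errors (SE) and adjusted p are from edgeR's quasi-likelihood test over all 13538 genes with Benjamini-Hochberg adjustment, and "called" means an adjusted p below 0.05. The values are relative to the other RNA counted in a library and do not measure RNA per cell. This holds for the changes on activation too, where 75.0% of all tested genes were called in Cre-only cells. Libraries held 14442251 to 23641552 counts. The 4 B cell markers Cd79a, Cd79b, Ms4a1 and Pax5 summed to 4201 to 4697 normalized CPM in resting Cre-only and 4857 to 5177 in resting Runx1 c-k/o libraries, without overlap, and to 1174 to 1346 and 1007 to 1334 at 3 h. Of the 6 T cell markers, Cd3d, Cd3e, Cd3g and Cd8a stayed below 1 in every library and Lck made up most of the sum of 30.3 to 84.6. The 2 NK markers summed to at most 1.35 and the 2 neutrophil markers to at most 3.47. The 3 monocyte and macrophage markers summed to 167 to 322 at rest and to 10.9 to 33.7 at 3 h, most of it Csf1r. The 2 erythroid markers, Hba-a1 and Hbb-b1, summed to 33.7 to 234 in resting Cre-only and 231 to 384 in resting Runx1 c-k/o libraries, and to 11.6 to 126 and 109 to 196 at 3 h. The follicular marker Fcer2a stood at 1074 to 1133 and 895 to 1089 at rest, and at 1089 to 1152 and 893 to 1110 at 3 h. The part of other cells in the results below was not tested.

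The Runx1 c-k/o libraries varied more than the Cre-only ones. Long genes were low against short genes in 2 of them. In resting replicate 2 the difference between the 2985 longest and the 2985 shortest protein-coding genes (medians of the log2 difference from the other 2 replicates) was -0.43, and in 3-h replicate 1 it was -0.69, against -0.03 to 0.04 in the 6 Cre-only libraries. Resting replicate 2 also had the 838 genes that rose at least 4-fold on activation at a median log2 difference of 0.66 from the other resting replicates, and Il2ra, an activation gene, stood at 39.4 normalized CPM there against 4.69 and 4.05. In 3-h replicate 2, genes that fall on activation were high: Pecam1 stood at 25.0 against 9.27 and 8.95. For some results below, values are also given with 1 or 2 of these 3 libraries left out.

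**Figure D1:**
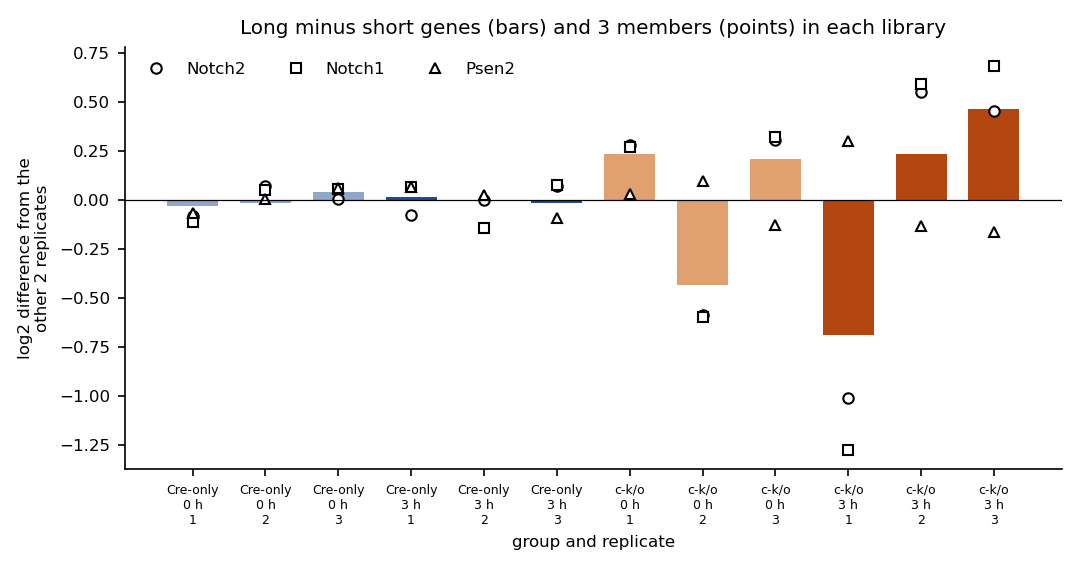
Bars show, for each library, how far long genes lay from short genes (log2 difference from the other 2 replicates of its group, median of the 2985 longest minus median of the 2985 shortest protein-coding genes), and points show the same difference for Notch2 (circles), Notch1 (squares) and Psen2 (triangles). Both Notch receptors were lowest, and bars most negative, in Runx1 c-k/o resting replicate 2 and 3-h replicate 1, while Psen2 was not low in either. Rbpj, with 5817 exon bases, is not drawn and lay at 0.34 and -0.23 in these 2 libraries.

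Runx1 itself was checked first. It stood at 83.6, 81.8 and 86.7 normalized CPM in the 3 Cre-only libraries at rest, against 101, 95.7 and 103 for Runx1 c-k/o. Values at 3 h were 38.5, 37.0 and 34.9 for Cre-only, against 47.3, 70.6 and 74.5 for Runx1 c-k/o. All Runx1 c-k/o libraries thus lay above the Cre-only libraries at both times. The log2 fold change was 0.25 at rest (SE 0.13, adjusted p = 0.55) and 0.80 at 3 h (SE 0.14, adjusted p = 0.0077). The 3-h value was not called in the fit of the 2 groups alone (0.82, adjusted p = 0.089). The resting value was called with 1 RUVs factor for unwanted variation in edgeR (0.33, adjusted p = 0.012) and DESeq2 (0.33, adjusted p = 0.00042), and with Runx1 c-k/o resting replicate 2 and 3-h replicate 1 left out (0.28, adjusted p = 0.0097). A gene total sums reads from all exons, so it does not show whether the floxed exon was removed.

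The promoter sequences below are shown because Psen2 was the gene that differed between genotypes and Rbpj the one that rose most on activation. RefSeq promoter entries were found for 8 of the 9 genes, in 10 entries since Psen2 and Rbpj each have 2 annotated starts; Hes1 had no entry. Each line gives the 250 bases before an annotated start in the mouse build GRCm38.p6, 5′ to 3′ on the strand of the gene. Capitals mark 6-base words read on either strand: TGTGGT or TGCGGT, the core words bound by RUNX proteins, and TGGGAA, the core word bound by RBPJ (TTCCCA where it lies on the other strand).
Psen2, upstream start (chr1:180256301-180256550, minus strand): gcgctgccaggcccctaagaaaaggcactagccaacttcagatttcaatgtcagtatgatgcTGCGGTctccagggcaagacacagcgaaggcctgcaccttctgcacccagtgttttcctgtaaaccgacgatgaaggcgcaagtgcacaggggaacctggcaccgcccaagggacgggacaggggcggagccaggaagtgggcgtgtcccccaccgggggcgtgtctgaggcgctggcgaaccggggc
Psen2, downstream start (chr1:180245951-180246200, minus strand): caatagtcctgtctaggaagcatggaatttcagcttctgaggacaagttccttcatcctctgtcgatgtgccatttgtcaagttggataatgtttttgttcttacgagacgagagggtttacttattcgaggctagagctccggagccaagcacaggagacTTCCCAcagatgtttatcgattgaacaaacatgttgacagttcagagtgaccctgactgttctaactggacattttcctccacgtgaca
Rbpj, upstream start (chr5:53590096-53590345, plus strand): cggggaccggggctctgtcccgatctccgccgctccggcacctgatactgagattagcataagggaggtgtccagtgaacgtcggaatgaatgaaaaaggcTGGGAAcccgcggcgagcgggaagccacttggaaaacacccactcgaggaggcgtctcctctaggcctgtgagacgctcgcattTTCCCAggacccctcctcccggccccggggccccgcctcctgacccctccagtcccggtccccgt
The upstream start of Psen2 held 1 RUNX word, TGCGGT, at positions -188 to -183 from the start, and no other of the 10 entries held one. Of all 32851 promoter entries of this length, 18.6% hold such a word. TGGGAA was found in 3 of the 10 entries, those of the second Psen2 start and of both Rbpj starts, which overlap, against 21.6% of all entries. These matches are letters in a window and were not tested as binding sites.

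Among the receptors, Notch2 (chr3:97817461-97954290 in the build mm9, plus strand) was the more abundant. It stood at 562, 603 and 585 normalized CPM in the 3 Cre-only libraries at rest, against 579, 388 and 587 for Runx1 c-k/o. At 3 h it stood at 106, 110 and 113 for Cre-only, against 68.7, 142 and 136 for Runx1 c-k/o. The genotypes overlapped at both times. The low values in Runx1 c-k/o cells were those of resting replicate 2 and 3-h replicate 1, the 2 libraries low in long genes. Resting replicate 2 was also high in genes that rise on activation (median log2 difference 0.66). Which of these properties went with the low Notch2 was not tested. All 6 libraries at 3 h lay far below all 6 resting ones.

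Between genotypes the log2 fold change of Notch2 was -0.17 at rest (SE 0.23, adjusted p = 0.79) and 0.08 at 3 h (SE 0.23, adjusted p = 0.88), with 95% intervals of -0.67 to 0.32 and -0.42 to 0.57. As ratios these intervals run from 0.631 to 1.25 at rest and from 0.745 to 1.49 at 3 h. Without Runx1 c-k/o 3-h replicate 1 the value at 3 h was 0.37 (adjusted p = 0.33), without 3-h replicate 2 it was -0.10 (adjusted p = 0.84), and without 3-h replicate 3 it was -0.06 (adjusted p = 0.90). With resting replicate 2 and 3-h replicate 1 both left out it was 0.36 with an adjusted p of 0.00057, and with resting replicate 2 and 3-h replicate 2 both left out it was -0.10 (adjusted p = 0.79). The side of zero on which Notch2 lay at 3 h therefore turned on which library was left out. With all 12 libraries, DESeq2 with 1 RUVs factor called it at 0.25 (adjusted p = 0.0032), and edgeR with the factor gave 0.21 (adjusted p = 0.054). The interaction of Notch2 was called with resting replicate 2 and 3-h replicate 1 left out (0.36, adjusted p = 0.029), and was -0.10 (adjusted p = 0.91) with resting replicate 2 and 3-h replicate 2 left out. On activation Notch2 fell by 2.41 on the log2 scale in Cre-only cells (SE 0.24, adjusted p = 1.8e-06) and by 2.17 in Runx1 c-k/o cells (SE 0.24, adjusted p = 4.4e-06). With 1 factor of unwanted variation estimated from the replicates (RUVs) in the model, both falls remained past the threshold but were smaller, at log2 fold changes of -1.36 and -1.12. The factor itself stood at 0.10 to 0.69 in resting libraries and at -1.39 to -0.25 in 3-h libraries. With it in the model, activation and unwanted variation cannot be fully told apart.

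Notch1 (chr2:26313423-26372183, minus strand), the receptor best known for T cell fate, was counted at much lower levels. Resting values were 43.4, 46.9 and 47.0 normalized CPM for Cre-only, against 49.4, 32.9 and 50.5 for Runx1 c-k/o. At 3 h they were 30.0, 27.2 and 30.2 for Cre-only, against 14.9, 36.0 and 37.5 for Runx1 c-k/o. As for Notch2, the genotypes overlapped and the same 2 Runx1 c-k/o libraries were low. The log2 fold change between genotypes was -0.05 at rest (SE 0.27, adjusted p = 0.95) and 0.02 at 3 h (SE 0.27, adjusted p = 0.98), and with resting replicate 2 and 3-h replicate 1 both left out it was 0.35 at 3 h (adjusted p = 0.0055).

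On activation Notch1 fell by 0.65 on the log2 scale in Cre-only cells, at an adjusted p of 0.043 close to the threshold. The Cre-only libraries at 3 h (27.2 to 30.2) all lay below those at rest (43.4 to 47.0). DESeq2 and the fit of the 2 Cre-only groups alone also called this fall. So did the fit with Runx1 c-k/o resting replicate 2 and 3-h replicate 1 left out. Notch1 missed the threshold in 8 of the 12 fits without 1 library (adjusted p up to 0.11) and in the fit with a replicate block, which matched rest and 3 h by number within each genotype (adjusted p = 0.075). In Runx1 c-k/o cells it changed by -0.59 (SE 0.27, adjusted p = 0.066), and it was called when Runx1 c-k/o resting replicate 2 (-0.76, adjusted p = 0.024), 3-h replicate 2 (-0.75, adjusted p = 0.041) or 3-h replicate 3 (-0.80, adjusted p = 0.029) was left out. With 1 factor of unwanted variation in the model the sign turned, to 0.64 for Cre-only and 0.67 for Runx1 c-k/o. That factor also separated resting from 3-h libraries, as stated for Notch2. Exons of Notch1 overlap those of the noncoding genes 0610009E02Rik and Gm13568 on the other strand, and the strand setting of the counting is not given in the sources used here.

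**Figure D2:**
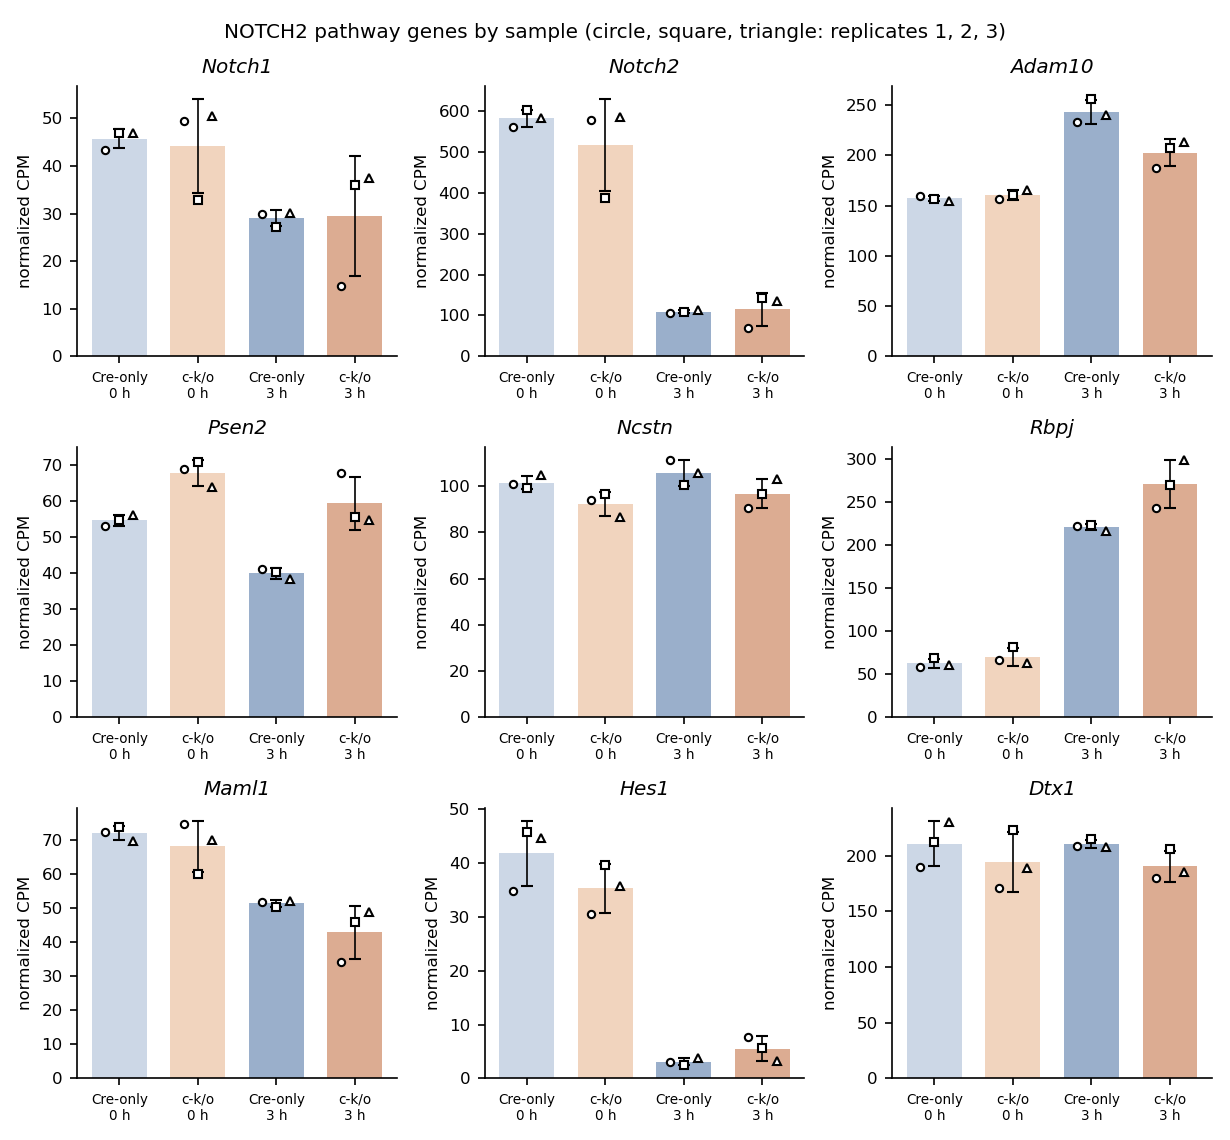
Normalized CPM of each of the 9 genes by group; bars are means of 3 samples, error bars are SD, and circles, squares and triangles are replicates 1, 2 and 3. Notch2 and Hes1 were far lower and Rbpj higher at 3 h than at rest in both genotypes, and Psen2 was higher in all Runx1 c-k/o than in all Cre-only libraries at each time.

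Among the proteases, Psen2 (chr1:182157135-182193569, minus strand) encodes presenilin 2, which cuts the receptor within the membrane. It stood at 52.9, 54.7 and 56.1 normalized CPM in the 3 Cre-only libraries at rest, against 68.6, 70.8 and 63.8 for Runx1 c-k/o. At 3 h it stood at 41.2, 40.4 and 38.2 for Cre-only, against 67.8, 55.4 and 54.6 for Runx1 c-k/o. The groups did not overlap at either time. The highest of the 3-h Runx1 c-k/o values was that of replicate 1, the library low in long genes.

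At 3 h the log2 fold change of Psen2 was 0.57 (SE 0.09, adjusted p = 0.0061), a ratio of 1.48 with a 95% interval of 1.29 to 1.71. It was 0.49 without 3-h replicate 1 (adjusted p = 0.0022) and 0.48 with resting replicate 2 and 3-h replicate 1 both left out (adjusted p = 0.00012). Over the 22 alternatives it lay between 0.48 and 0.62 and was called in 21. The exception was the fit of the 2 compared groups alone (0.59, adjusted p = 0.060). At rest the log2 fold change was 0.31 (SE 0.09) with an adjusted p of 0.18, which fell to 0.029 without Runx1 c-k/o 3-h replicate 1. Over the alternatives the resting value lay between 0.26 and 0.35 and was called in 4 of 22.

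Activation lowered Psen2 by 0.45 on the log2 scale in Cre-only cells (SE 0.09, adjusted p = 0.00086). In Runx1 c-k/o cells the change was -0.19 (SE 0.09, adjusted p = 0.079), and it was called without 3-h replicate 1 (-0.31, adjusted p = 0.0019) and with 1 RUVs factor (-0.49, adjusted p = 0.00087). The difference between these changes was 0.26 (SE 0.13, adjusted p = 1.0), so the fall was not shown to differ between genotypes.

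Adam10 (chr9:70526804-70628036, plus strand) makes the first cut after ligand binding. It stood at 160, 157 and 155 normalized CPM in the 3 Cre-only libraries at rest, against 156, 161 and 165 for Runx1 c-k/o, which overlapped. At 3 h it stood at 233, 256 and 241 for Cre-only, against 188, 207 and 213 for Runx1 c-k/o. All Runx1 c-k/o libraries lay below all Cre-only ones at 3 h, by 0.26 on the log2 scale (log2 fold change -0.26, SE 0.08), but the adjusted p of edgeR was 0.11. DESeq2's Wald test called it (-0.22, adjusted p = 0.013). On activation Adam10 rose by 0.63 in Cre-only cells (SE 0.08, adjusted p = 1.1e-05) and by 0.33 in Runx1 c-k/o cells (SE 0.08, adjusted p = 0.0018), and the difference of -0.29 did not pass the test (SE 0.11, adjusted p = 0.75).

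Ncstn (chr1:173996144-174012926, minus strand) encodes nicastrin, a γ-secretase subunit without catalytic activity that takes part in substrate binding. It stood at 101, 99.1 and 105 normalized CPM in the 3 Cre-only libraries at rest, against 93.9, 96.4 and 86.5 for Runx1 c-k/o. Values at 3 h were 111, 100 and 105 for Cre-only, against 90.4, 96.7 and 103 for Runx1 c-k/o. The resting groups did not overlap and the 3-h groups did, and neither difference passed the test (log2 fold changes -0.14 and -0.13, adjusted p = 0.58 and 0.43). Ncstn also did not pass the test on activation, at log2 fold changes of 0.06 and 0.07 whose 95% intervals stayed within -0.11 and 0.24. Its exons overlap those of Copa on the other strand.

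Among the nuclear factors, Rbpj (chr5:53947018-54048684, plus strand) encodes the DNA-binding partner of all Notch receptors. Resting values were 58.7, 68.8 and 60.6 normalized CPM for Cre-only, against 65.9, 81.5 and 62.7 for Runx1 c-k/o. At 3 h they were 222, 223 and 217 for Cre-only, against 242, 270 and 299 for Runx1 c-k/o. The resting groups overlapped, with the highest value in Runx1 c-k/o resting replicate 2, and the 3-h groups did not.

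Activation raised Rbpj by 1.81 on the log2 scale in Cre-only cells (SE 0.12, adjusted p = 5.6e-08) and by 1.95 in Runx1 c-k/o cells (SE 0.12, adjusted p = 5.0e-08). Between genotypes the log2 fold change was 0.16 at rest (SE 0.11, adjusted p = 0.65) and 0.29 at 3 h (SE 0.11, adjusted p = 0.23). The 3-h value passed the threshold without Runx1 c-k/o 3-h replicate 1 (0.39, adjusted p = 0.042) and in DESeq2 (0.33, adjusted p = 0.046). The interaction was 0.13 (SE 0.16, adjusted p = 1.0).

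Maml1 (chr11:50069136-50105838, minus strand) encodes a Mastermind-like coactivator. It stood at 72.3, 73.7 and 69.8 normalized CPM in the 3 Cre-only libraries at rest, against 74.6, 60.0 and 69.9 for Runx1 c-k/o. At 3 h it stood at 51.8, 50.3 and 52.0 for Cre-only, against 34.1, 45.8 and 48.9 for Runx1 c-k/o. The resting groups overlapped, and at 3 h all Runx1 c-k/o libraries lay below the Cre-only ones, the lowest being replicate 1. The log2 fold change at 3 h was -0.26 (SE 0.12, adjusted p = 0.33), and -0.09 without 3-h replicate 1. On activation Maml1 fell by 0.49 in Cre-only cells (SE 0.12, adjusted p = 0.0033) and by 0.67 in Runx1 c-k/o cells (SE 0.12, adjusted p = 0.00036). With 1 factor of unwanted variation, which also separated rest from 3 h, the changes were -0.0077 and -0.18 and were not called.

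Among the targets, Hes1 (chr16:30064470-30067882, plus strand) encodes a transcriptional repressor induced directly by Notch in many cell types. It stood at 34.8, 45.9 and 44.7 normalized CPM in the 3 Cre-only libraries at rest, against 30.6, 39.7 and 35.7 for Runx1 c-k/o. At 3 h it stood at 3.06, 2.55 and 3.76 for Cre-only, against 7.72, 5.64 and 3.24 for Runx1 c-k/o, values that rest on 39 counts in the shallowest case. The genotypes overlapped at both times, while rest and 3 h were far apart.

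Hes1 had the largest change of the 9 genes on activation, a fall of 3.74 on the log2 scale in Cre-only cells (SE 0.26, adjusted p = 9.6e-08) and of 2.68 in Runx1 c-k/o cells (SE 0.25, adjusted p = 9.7e-07). The difference between these falls was 1.06 (SE 0.35, unadjusted p = 0.011, adjusted p = 0.67), and it was called by DESeq2 with 1 RUVs factor (1.05, adjusted p = 0.016). At 3 h Hes1 was at a log2 fold change of 0.82 between genotypes (SE 0.28, adjusted p = 0.17), with a 95% interval of 0.21 to 1.42. It was 1.10 and called without Runx1 c-k/o 3-h replicate 3 (adjusted p = 0.023), 0.52 without replicate 1 (adjusted p = 0.44), and called by DESeq2 (0.87, adjusted p = 0.044).

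Dtx1 (chr5:121130211-121161936, minus strand) encodes Deltex1, a ubiquitin ligase and Notch target. Resting values were 190, 212 and 230 normalized CPM for Cre-only, against 171, 223 and 189 for Runx1 c-k/o. At 3 h they were 208, 215 and 208 for Cre-only, against 180, 206 and 185 for Runx1 c-k/o. The resting groups overlapped and the 3-h groups did not. No comparison of Dtx1 passed the test: the log2 fold changes were -0.12 and -0.14 between genotypes (adjusted p = 0.71 and 0.51) and 0.00 and -0.03 on activation (adjusted p = 0.98 and 0.82). The 95% interval of the change on activation was -0.24 to 0.23 in Cre-only cells, so a change as large as those of Hes1 and Notch2 lies outside it.

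**Figure D3:**
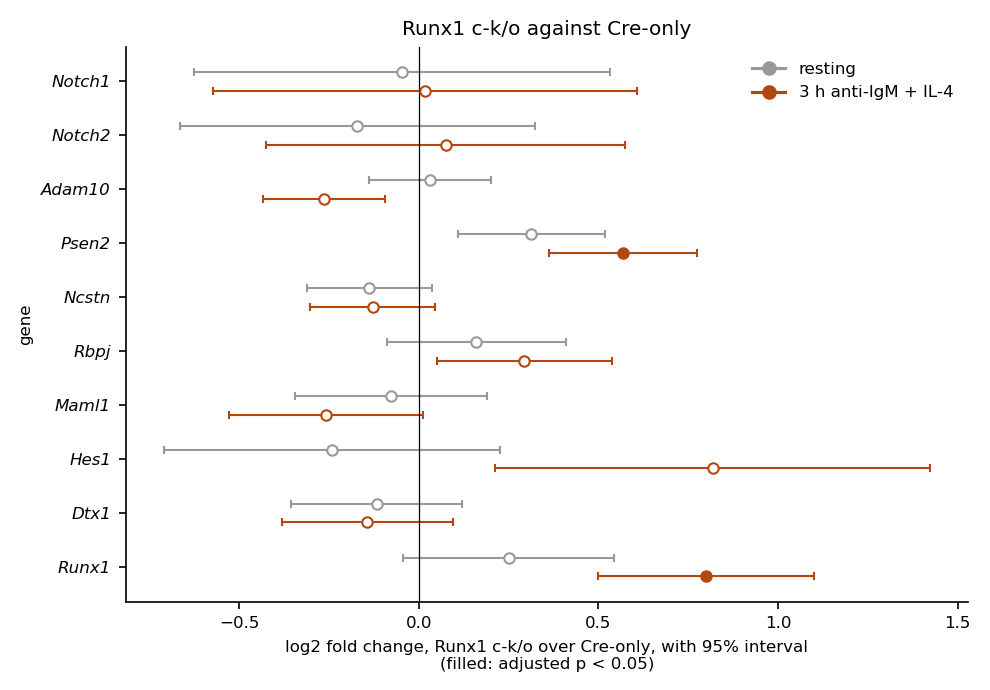
Log2 fold change of Runx1 c-k/o over Cre-only cells for the 9 genes and Runx1, at rest (grey) and at 3 h (orange), with 95% intervals; filled points have an adjusted p below 0.05 (edgeR). Psen2 and Runx1 at 3 h, at 0.57 and 0.80, are the filled points.

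Counted over the 9 genes, edgeR called 0 at rest between genotypes, where 1.49% of all tested genes were called. Psen2 was the 1 gene with an unadjusted p below 0.05 (1496 of all 13538), and DESeq2 also called 0, against 2.79%. At 3 h edgeR called 1 of 9 against 2.77% of all genes, and 4 had an unadjusted p below 0.05 (2194 of all 13538). DESeq2 called 4 (Psen2, Adam10, Hes1 and Rbpj) against 5.24%. Groups did not overlap for 2 of the 9 genes at rest and for 5 at 3 h, beside 23.7% and 21.8% of all tested genes. The median log2 fold change of the 9 genes was -0.08 at rest and 0.02 at 3 h, beside 0.03 and 0.01 over all genes.

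With Runx1 c-k/o resting replicate 2 and 3-h replicate 1 both left out, 1 of 9 genes was called at rest and 5 at 3 h (Psen2, Notch2, Rbpj and Notch1 higher, Adam10 lower), against 4.40% and 6.80% of all genes. With resting replicate 2 and 3-h replicate 2 left out instead, the calls were 0 and 1 (Psen2), against 1.12% and 3.15% of all genes.

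Activation called 7 of the 9 genes in Cre-only cells, 2 higher and 5 lower, against 75.0% of all tested genes. In Runx1 c-k/o cells it called 5 of 9, 2 higher and 3 lower, against 74.3%. As shares these are 77.8% and 55.6%, the first near that of all genes and the second below it, on 9 genes. The median log2 fold change of the 9 genes was -0.45 and -0.19, beside 0.03 and 0.00 over all genes. For the interaction edgeR called 0 of 9 genes, against 0.0813% of all genes, and DESeq2 called 0, against 0.694%. An unadjusted p below 0.05 was found for 2 of the 9 (Hes1 and Adam10) and for 686 of all 13538. The comparisons share samples with each other, so they are not independent of one another.

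**Figure D4:**
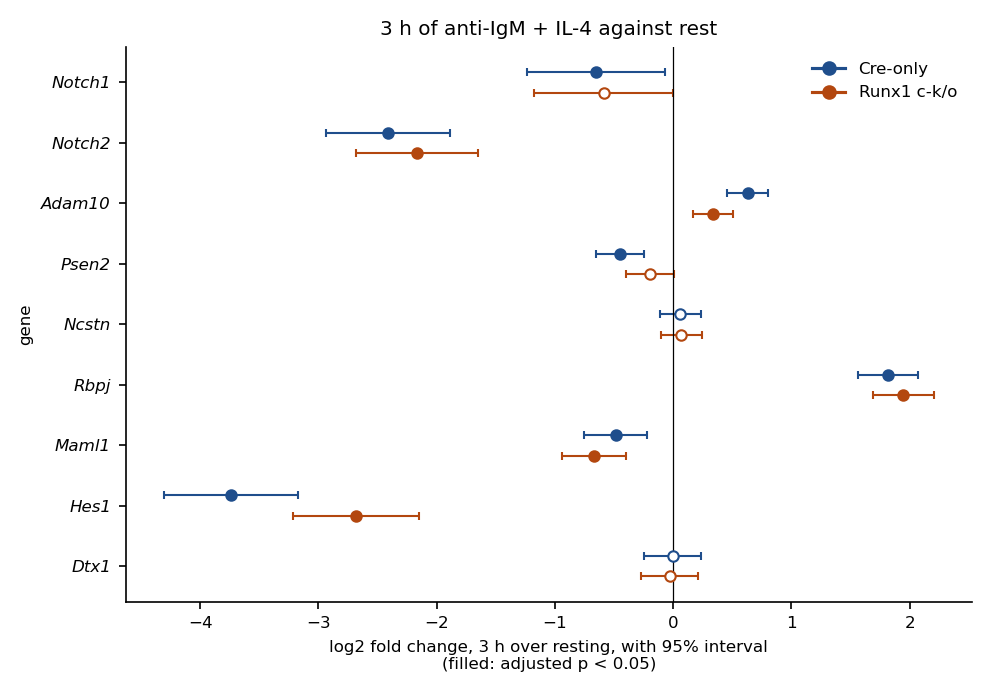
Log2 fold change from rest to 3 h for the 9 genes in Cre-only (blue) and Runx1 c-k/o cells (orange), with 95% intervals; filled points have an adjusted p below 0.05 (edgeR). Hes1 and Notch2 lie lowest and Rbpj highest in both genotypes, and Dtx1 and Ncstn lie at zero within their intervals.

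Levels can be compared between genes only per length of transcript. Per kilobase of annotated exon, resting Cre-only cells had Notch2 highest at 55.5 ± 1.94 CPM per kb (SD, n = 3), followed by Dtx1 (45.2 ± 4.36), Adam10 (31.9 ± 0.517), Ncstn (25.5 ± 0.723), Hes1 (20.5 ± 2.98), Psen2 (14.2 ± 0.422), Maml1 (13.0 ± 0.360), Rbpj (10.8 ± 0.929) and Notch1 (3.21 ± 0.144). No 2 neighbours in this order overlapped in their ranges. Resting Runx1 c-k/o cells had nearly the same order, with Psen2 (17.7 ± 0.927) and Hes1 (17.3 ± 2.23) exchanged. There the ranges of 3 neighbouring pairs overlapped: Notch2 with Dtx1, Psen2 with Hes1, and Maml1 with Rbpj.

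At 3 h the order was different. In Cre-only cells Adam10 was highest at 49.3 ± 2.42 CPM per kb, then Dtx1 (45.1 ± 0.827), Rbpj (37.9 ± 0.581) and Ncstn (26.6 ± 1.38). Notch2 (10.4 ± 0.362) and Psen2 (10.4 ± 0.398) followed with overlapping ranges, then Maml1 (9.25 ± 0.170), Notch1 (2.05 ± 0.119) and Hes1 (1.53 ± 0.298). In Runx1 c-k/o cells Rbpj came first at 46.5 ± 4.82, with ranges overlapping those of Adam10 (41.1 ± 2.70), and Adam10 those of Dtx1 (40.8 ± 2.97). The order depends on the length used: with the mean length of annotated transcripts in place of all exons, Dtx1 came first and Notch2 at rank 4 in resting Cre-only cells, at 118 and 57.2 CPM per kb.

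The genes with profiles most like those of 4 members were found by the root mean square difference of log2 values (normalized CPM plus a pseudocount of 0.5) over the 12 samples, each centred on its own mean. For Notch2 they were Jhdm1d (0.087), Herc3 (0.12) and Insr (0.13), and for Rbpj Ssfa2 (0.095), B4galt5 (0.11) and Atp2a2 (0.11). For Dtx1 they were Copg2 (0.088), Aldh9a1 (0.098) and 5930434B04Rik (0.10). Hes1 had no gene as near, with Gmfg at 0.25, 1190002H23Rik at 0.27 and Lilra6 at 0.27.

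A wider list of 65 other Notch pathway genes was examined by role, of which 57 passed the filter on low counts. Between genotypes 0 of 57 were called at rest by edgeR, beside 1.49% of all genes, with 7 at an unadjusted p below 0.05 (1496 of all 13538). DESeq2 called 2 (Nedd4 and Cr2), beside 2.79% of all genes. At 3 h 1 of 57 was called, or 1.75% beside 2.77% of all genes, with 12 at an unadjusted p below 0.05 (2194 of all). DESeq2 called 5 (Nedd4, Fbxw7, Mfng, Neurl3 and Dtx4), beside 5.24% of all genes. The median log2 fold change of the list was 0.00 at rest and -0.06 at 3 h.

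The called gene was Nedd4 (chr9:72510364-72597649, plus strand), a ubiquitin ligase known to promote turnover of Notch receptors. It stood at 182, 144 and 144 normalized CPM in the 3 Cre-only libraries at rest, against 274, 229 and 298 for Runx1 c-k/o. At 3 h it stood at 15.6, 12.5 and 12.5 for Cre-only, against 40.1, 67.8 and 61.8 for Runx1 c-k/o. All Runx1 c-k/o libraries were higher at both times. The log2 fold change was 0.77 at rest (SE 0.18, adjusted p = 0.066) and 2.06 at 3 h (SE 0.20, adjusted p = 0.00016), the latter a ratio of 4.17 with a 95% interval of 3.10 to 5.60. The resting value was called without Runx1 c-k/o 3-h replicate 1 (0.76, adjusted p = 0.0094), and the 3-h value was called in all 22 alternatives, at 1.91 to 2.28. On activation Nedd4 fell by 3.53 on the log2 scale with Cre-only and fell by 2.24 with Runx1 c-k/o, and the difference of 1.29 did not pass the test (adjusted p = 0.16) but did so without 3-h replicate 1 (1.52, adjusted p = 0.0098).

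**Figure D5:**
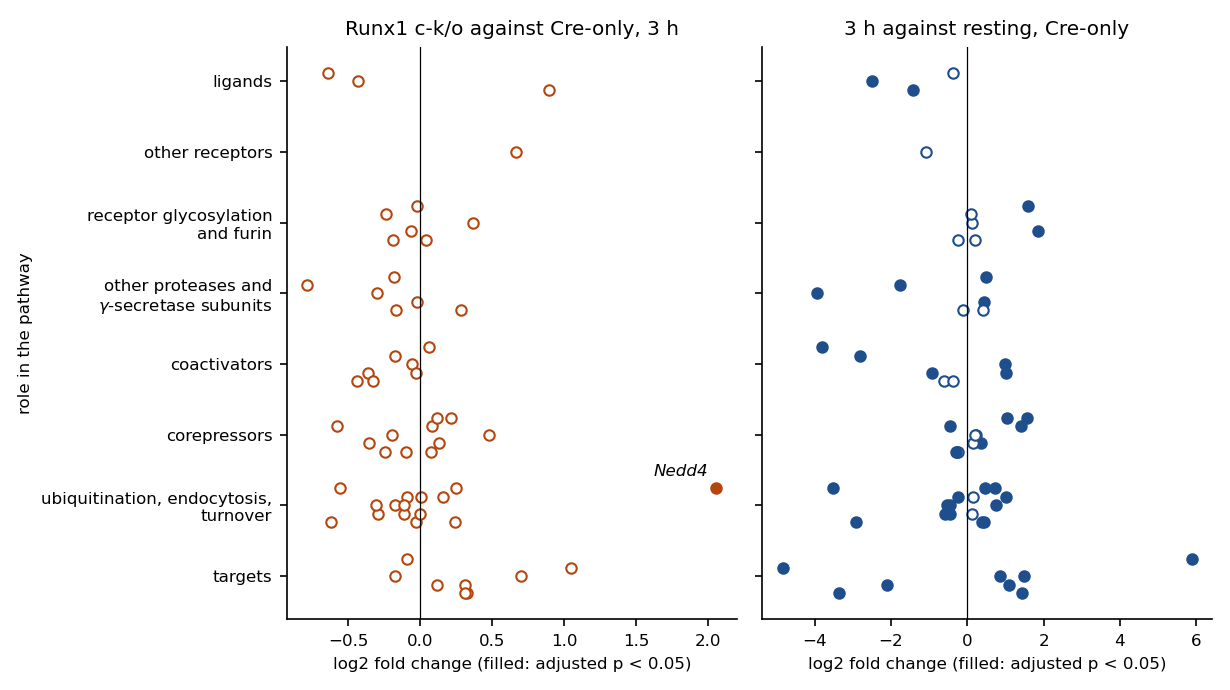
Log2 fold changes of the 57 tested genes of the wider list by role, between genotypes at 3 h (left, orange) and on activation of Cre-only cells (right, blue, with a wider axis); filled points have an adjusted p below 0.05 (edgeR). Nedd4, at 2.06, is the filled point on the left, while filled points on the right lie on both sides of zero.

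On activation 40 of the 57 genes were called in Cre-only cells, 21 higher and 19 lower, and 42 in Runx1 c-k/o cells, 22 higher and 20 lower. These are 70.2% and 73.7% of the list, near the shares of all genes. Ligands were counted at low levels: Dll1, Dll4 and Jag2 reached at most 3.13 normalized CPM in any library. Dll1 fell by 1.43 and Dll4 by 2.49 on the log2 scale in Cre-only cells (adjusted p = 0.00028 and 9.0e-06), and Jag2 was at -0.37 (adjusted p = 0.19). Notch4 was at most 1.33 normalized CPM in any library.

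Of the other γ-secretase subunits, Aph1a, a scaffold subunit, rose by 0.45 on the log2 scale in Cre-only cells (adjusted p = 0.0025), and Psenen, the presenilin enhancer, was at 0.40 (adjusted p = 0.078). With 1 factor of unwanted variation Psenen turned to -0.39 (adjusted p = 0.013). Neither subunit passed the test between genotypes at 3 h, where Aph1a was at -0.02 (adjusted p = 0.94) and Psenen was at 0.28 (adjusted p = 0.47). Adam17, a sheddase related to Adam10, was at -0.10 on activation of Cre-only cells (adjusted p = 0.30).

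The counts by role that follow stand beside the 75.0% of all genes called in the same comparison, and with so few genes a role they say little about the roles. Of 7 coactivators 5 changed in Cre-only cells, 2 higher and 3 lower. Maml2, a relative of Maml1, fell by 3.81 (adjusted p = 2.5e-08), beside a fall of 0.49 for Maml1. Of 11 corepressors 4 rose and 2 fell. All 8 tested targets changed, 5 upwards and 3 downwards. Cr2, which encodes the complement receptor CD21, rose by 1.10 (adjusted p = 1.4e-05), Myc by 1.43 (adjusted p = 1.8e-05) and Skp2 by 0.85 (adjusted p = 2.9e-05), while Bcl2 fell by 3.36 (adjusted p = 1.2e-07).

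Between genotypes Cr2 was higher in every Runx1 c-k/o library at both times, at 818, 941 and 1075 against 1317, 1225 and 1411 normalized CPM at rest. Its log2 fold changes of 0.48 and 0.31 were not called in the main edgeR fit (adjusted p = 0.15 and 0.29). Over 22 alternatives Cr2 was called in 3 at rest, among them edgeR with 1 RUVs factor, and in 1 at 3 h. Groups without overlap were found for 23.7% of all genes at rest and 21.8% at 3 h. Bcl2 was likewise higher in every resting Runx1 c-k/o library, at 102, 110 and 112 against 161, 131 and 157. Its log2 fold change of 0.47 (adjusted p = 0.43) was called in 2 of 22 alternatives. At 3 h Bcl2 was at 0.33 with overlap (adjusted p = 0.48). The other named targets were not called either: Myc was at 0.01 and 0.31 (adjusted p = 0.99 and 0.40) and Skp2 at -0.16 and -0.18 (adjusted p = 0.69 and 0.44) at rest and at 3 h. Cr2 is also a marker of marginal zone B cells, and the other 4 such markers (Cd1d1, Cd9, S1pr3 and Myof) summed to 181 to 220 normalized CPM in resting Cre-only and 187 to 261 in resting Runx1 c-k/o libraries, with overlap. At 3 h they summed to 459 to 502 and 310 to 395, without overlap. The markers themselves changed with the 3-h treatment. In Cre-only cells S1pr3 stood at 19.0 to 25.6 at rest and 161 to 184 at 3 h, and Myof at 76.4 to 98.1 and 252 to 299. Cd9 was also higher at 3 h, while Cd1d1 stood at 64.1 to 73.9 at rest and 2.29 to 2.42 at 3 h. The 3-h sum therefore does not measure an amount of marginal zone cells. The 4 markers did not move together: Cd9 was higher in every Runx1 c-k/o library at rest (23.1 to 41.2 against 20.4 to 22.1) and at 3 h (48.6 to 64.9 against 32.0 to 42.9), while at 3 h Myof (112 to 200 against 252 to 299) and S1pr3 (133 to 145 against 161 to 184) were lower in every one. The part of these cells in the genotype comparisons was not tested.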

How the data were processed

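RNA from 12 samples was sequenced in bulk and analysed as gene counts. The authors aligned reads to the mouse genome mm9 (NCBIM37) with TopHat2 2.0.11 and deposited raw counts per Ensembl gene from featureCounts, per the submitters' processing notes and the study's methods. The strand setting and the handling of multiply mapped reads are not given in the sources used here. ERCC spike-ins were added, but no spike-in rows were used. The study's own test, DESeq2 with RUV-seq, does not state its number of factors or control genes, so it was run only as an alternative with 1 RUVs factor.

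Symbols came from a reference list of gene names, which gave symbols for 37205 of 37991 identifiers and matched all 65 genes of the wider list. Gene positions and exon lengths came from GENCODE vM1, which also held 37205 of the identifiers. It corresponds to Ensembl release 65, not the release that the study names, and this bears on the levels per kb. The 0 unmapped columns left all 12 samples in use. Counts were filtered with filterByExpr (minimum count 10), TMM-normalized and fitted with edgeR 4.0.16 (R 4.3.3, robust quasi-likelihood, 1 term for each of 4 groups, all 12 samples). The 5 contrasts were the genotype effect at each time, the activation effect in each genotype and their interaction. P-values were Benjamini-Hochberg adjusted over 13538 genes with a threshold of 0.05. Intervals are 95% intervals of the fit. Scripts were tested on simulated data, and summaries used pandas 2.3.3 in Python 3.11.15.

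Named genes are the 9 members, the targeted gene, every gene of the wider list called between genotypes or in the interaction, direct paralogs, partners and ligands, the targets Cr2, Myc, Bcl2 and Skp2, and for 4 members the 3 genes of nearest profile. A few genes that this rule or the marker lists include are not reported here. Other named genes were chosen after their values were seen. The members, lists and tests were chosen with earlier results of these data known. In a library, 3 counts correspond to 0.127 to 0.208 CPM, a limit for counting error only. Alternatives were DESeq2 1.42.0, its size factors, other filters, 1 RUVs factor, the 2 compared groups alone, a replicate block and leaving out each library. The replicate numbers were looked at as pairs, by correlating deviations from group means of same-numbered resting and 3-h libraries. These gave r = 0.28, 0.18 and 0.14 for Cre-only, and -0.25, -0.26 and 0.25 for Runx1 c-k/o. Same-numbered Cre-only libraries thus all correlated positively, but weakly, and the others did not. Whether the numbers mark pairs was not tested, and the main fit does not use them. The highest r for each Runx1 c-k/o library was with another number (resting 2 with 3-h 1 at 0.48, 3 with 2 at 0.31, 1 with 3 at 0.27). The block within genotype still used the numbers as labelled there, so its Runx1 c-k/o values rest on 3 pairs of which 2 correlate negatively.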

Additional observations from a re-analysis of the deposited data

How the results depend on the processing

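Of 1008 alternative values for the 9 genes over the 5 contrasts, 954 stayed on the same side of the threshold with no called value changing sign, 16 lost a call, 34 gained one and 4 called values turned sign. Values that were not called could lie on either side of zero. No count for activation moved by more than 1.5 times, though the members called in Runx1 c-k/o cells ran from 5 to 7. The cause of the changes below was not tested. Leaving out Runx1 c-k/o resting replicate 2 with 3-h replicate 1 or 2, and DESeq2 with 1 RUVs factor, were chosen after seeing the data.

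Members called between genotypes at rest (0 in the report) were 1 with the RUVs factor, with DESeq2 plus the factor and with resting replicate 2 and 3-h replicate 1 left out, and 0 to 1 without single libraries. At 3 h (1) they were 4 with DESeq2, 2 with the factor, 5 with DESeq2 plus the factor (Psen2, Notch2, Adam10, Rbpj and Hes1), 5 without those 2 libraries, 0 with the 2 groups alone, and 1 to 2 without single libraries. For the interaction (0) they were 1 with DESeq2 plus the factor (Hes1) and 1 without those 2 libraries (Notch2). On the wider list at rest (0), calls were 2 with DESeq2, 3 with the factor, 4 with both, 2 under either pair of left-out libraries, 1 with the 2 groups alone and 0 to 1 without single libraries. At 3 h (1) they were 2 with no filter, 2 with at least 10 counts in every sample, 5 with DESeq2, 8 with the factor, 9 with both, 4 and 2 under the pairs, and 1 to 2 without single libraries. For the interaction (0) they were 1 with DESeq2, the factor, both, or the first pair left out, and 0 to 1 without single libraries.

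Over all genes the 202 calls at rest became 378 with DESeq2, 524 with the factor, 611 with both and 595 without the first pair, and 84 to 387 without single libraries. The 375 at 3 h became 709, 1036, 1230 and 921, then 152 with the 2 groups alone and 182 to 637 without single libraries. The 11 for the interaction became 83, 142, 253 and 187, then 4 to 29 without single libraries. With a replicate block shared by both genotypes the counts were 140, 275 and 12, and with a paired block within genotype the interaction had 4. In the Cre-only samples, where same-numbered libraries correlated weakly and positively, the block ended the call of Notch1 and of no other of the 9 genes. Signs turned for Notch1 on activation (0.64 and 0.53 for Cre-only, 0.67 and 0.60 for Runx1 c-k/o, with the factor in edgeR and in DESeq2), for Psenen (-0.39 and -0.49, then -0.38 and -0.44), for Aph1a with DESeq2 plus the factor (-0.013 and -0.039) and for Adam17 in Runx1 c-k/o with the factor (0.0010). All these turns came with the factor, which separated resting from 3-h libraries. Activation and unwanted variation cannot be fully told apart there. Levels per kb moved by more than 1 SD for most genes when mean transcript length was used (9 of 36 did not).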

Other observations

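Of the wider list, 8 genes had too few counts to be tested. The highest count in any library was 3 for Dll3, 9 for Jag1, 5 for Notch3, 9 for Neurl1a, 2 for Hes7, 3 for Hey2, 7 for Heyl and 5 for Gata3. Dll3 and Jag1 are ligands, Notch3 is a receptor, and Hes7, Hey2 and Heyl are targets.

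Other genes of the wider list changed on activation of Cre-only cells (edgeR, adjusted p below 0.05), and those named here were chosen after their values were seen. Lfng, a glycosyltransferase that modifies Notch receptors, rose by 1.84 on the log2 scale and Poglut1 by 1.60. Of the targets, Il2ra rose by 5.88 and Hes5 by 1.48, while Hey1 fell by 4.84 and Nrarp, a feedback inhibitor of Notch, fell by 2.09. Aph1b and Aph1c, relatives of the scaffold subunit Aph1a, fell by 3.95 and by 1.76.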
